A study of Homo sapiens with 3 samples.

Results

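The MYC network is a set of basic helix-loop-helix leucine zipper transcription factors. Its members described here are the 10 genes *MYC*, *MYCN*, *MAX*, *MXD1*, *MXD3*, *MXD4*, *MXI1*, *MNT*, *MLX* and *MLXIP*. They were chosen by symbol from a table of 23131 genes, and all 10 have a row. The table holds the transcriptome of HCT-116 cells, an established colon carcinoma line that carries wild-type APC and a β-catenin lacking Ser45, a residue whose loss protects β-catenin from degradation. All cells, controls included, therefore had active canonical WNT signaling before any treatment. Cells were transfected on consecutive days and harvested 48 hours after the second transfection. The series has 3 libraries of 1 sample each. One received a pool of anti-APC siRNA, one a pool of scrambled siRNA, and one is called untransfected in its title and mock (reagent only) in its treatment label. The comparison reported here is anti-APC siRNA against untransfected. Values of the scrambled control were not analysed here, so an effect of siRNA delivery and an effect of APC loss cannot be told apart.

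Factors of this network bind DNA in pairs. MYC and MYCN need MAX as a partner to bind the E-box CACGTG, where they activate genes of growth, ribosome production and metabolism. The MXD proteins, MXI1 and MNT compete for MAX and recruit the SIN3 corepressor with its histone deacetylases to the same sites. MLX is a second hub that pairs with some MXD proteins, with MNT, and with the glucose-responsive factors MLXIP and MLXIPL. In the intestinal epithelium *MYC* is a textbook target of β-catenin and TCF factors and is highly active in most colorectal cancers, which is why its partners and antagonists are of interest where APC is reduced.

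The E-box itself occurs beside the start of some of these genes. In RefSeq promoters of GRCh38.p14, read from 250 bases before to 50 bases after a gene start, 9 of the 10 members had an entry and 3 held CACGTG, which reads the same on both strands. *MYC* was the member with no entry, so its promoter was not examined. The motif was present in 7.26% of all 35116 promoters in that collection, and in 8.77% of genes when all promoters of a gene were counted. The stretches below are shown because they are copies of the element that the network's dimers recognise, with the 6 bases of the E-box in capitals. Each has 12 bases on either side and is written on the strand of its gene. *ODC1*, a growth-related target described further below, is included for comparison with the members. It has 2 listed promoters, and a further match lies just after a listed start. The promoter of *TERT*, another target described below, holds a CACGTG 163 bases before its start. Neither of these matches is printed.
*MXD4* (chr4:2262330-2262359, minus strand): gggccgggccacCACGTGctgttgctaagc
*MNT* (chr17:2401236-2401265, minus strand): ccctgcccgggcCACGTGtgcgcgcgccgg
*MLX* (chr17:42567038-42567067, plus strand): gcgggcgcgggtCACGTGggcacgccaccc
*ODC1* (chr2:10448024-10448053, minus strand): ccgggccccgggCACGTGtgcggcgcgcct
The E-box began 238 bases before the start of *MXD4*, 193 bases before that of *MNT* and 50 bases before that of *MLX*. For *ODC1* it began 29 bases before a listed start, which need not be that of its main transcript. No CACGTG was present in the listed windows of *MYCN*, *MAX*, *MXD1*, *MXD3*, *MXI1* or *MLXIP*, which says only that these letters are not in those windows. These matches are sequence descriptions and not evidence of binding.

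Transcript levels are given as FPKM, fragments scaled to transcript length and to the mapped reads of the library, so levels of different genes can be set side by side. With 1 library per condition there is no replicate error and no test, and a difference is described as past the threshold when it reached 1.5-fold in a gene with a mean of at least 1 FPKM. In total 12063 genes met that level with a value above 0 in both libraries. Intervals given with ratios are 95% counting intervals from estimated reads, and they cover counting error only, not the variation between cultures. Reads were estimated from genes with 1 read in each library and reference transcript lengths, which gave about 22900000 reads in untransfected and 20900000 reads in anti-APC cells. The knockdown itself was visible, since *APC* stood at 9.15 FPKM in untransfected cells and 3.43 FPKM with anti-APC siRNA, 37.5% of the untransfected level. *AXIN2*, a feedback inhibitor induced by WNT signaling, was at 4.11 and 28.7 FPKM, respectively. Of the epithelial markers *EPCAM*, *CDH1*, *KRT8*, *KRT18*, *KRT19* and *VIL1*, all but *VIL1* (at most 0.0313 FPKM) were expressed in both libraries. Their summed level was 1642 FPKM in untransfected and 1287 FPKM in anti-APC cells. All 5 expressed markers were lower with anti-APC siRNA, with a median log2 ratio of -0.41, and *CDH1*, which encodes E-cadherin, was past 1.5-fold at 19.0 and 12.1 FPKM (log2 ratio -0.65, interval -0.76 to -0.55). Leukocyte, fibroblast and endothelial markers were near 0, apart from *CD68* (8.91 and 5.01 FPKM) and *COL1A1* (2.85 and 3.08 FPKM). Whether these differences bear on the network genes was not tested. In bulk RNA, fewer cells with a transcript and less transcript per cell cannot be told apart.

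None of the network members reached a 1.5-fold difference between the libraries. Of the 10 members, 9 were expressed and 0 of these 9 passed the threshold, whereas 9.17% of all expressed genes did (2.56% higher and 6.61% lower with anti-APC siRNA). A share of 9.17% of 9 genes is less than 1 gene, so a count of 0 does not set the members apart from other genes. The log2 ratios of the 9 members ran from -0.18 for *MXD3* to 0.14 for *MAX*, with a median of 0.03, and the median of all expressed genes was -0.05. In absolute terms the median log2 ratio was 0.08 over the members and 0.17 over all expressed genes. Of all expressed genes, 53.2% had an absolute log2 ratio no larger than that of *MXD3*. The counting intervals of all 9 members lay within 1.5-fold in either direction.

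**Figure D1:**
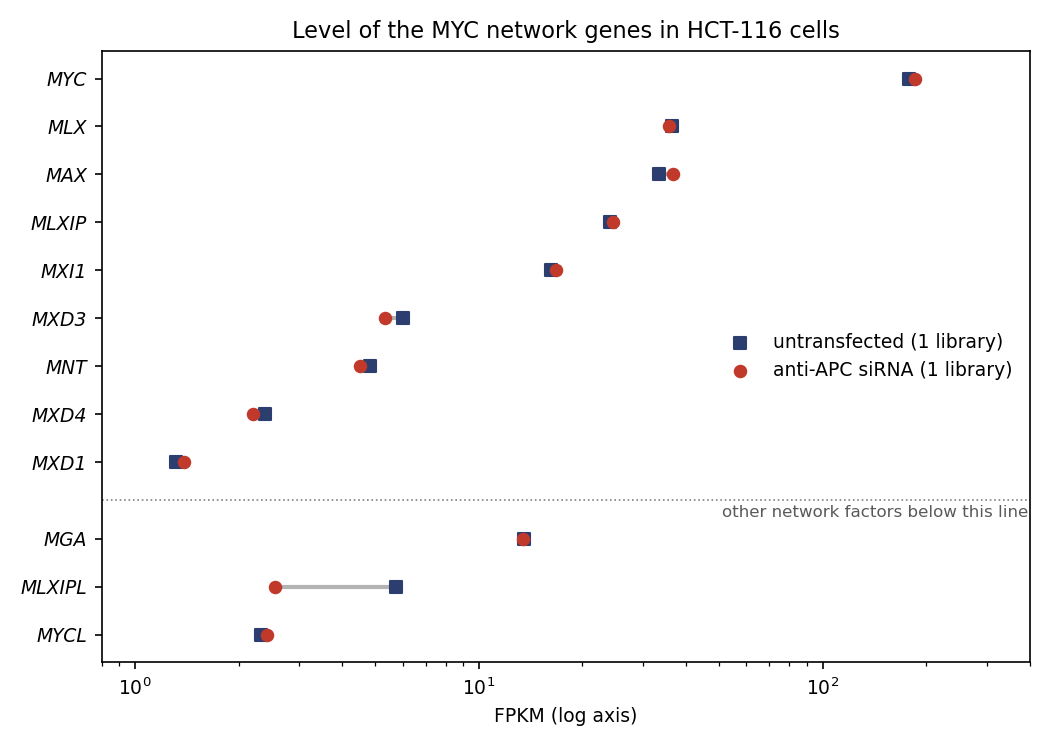
FPKM (log axis) of the 9 expressed members and of 3 further network factors (below the dotted line), with squares for the untransfected and circles for the anti-APC library. *MYC* stands at 178 and 185 FPKM, far above all others, and *MLXIPL* is the gene whose 2 points are well apart (5.73 and 2.55 FPKM). *MYCN*, listed at 0 in both, is not drawn.

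*MYC*, the activator that drives the network, was by far its most abundant transcript. It read 178 FPKM in the untransfected library and 185 FPKM in the anti-APC library, 1.04 times the untransfected level. The gene lies on chromosome 8 of GRCh37 from 128747680 to 128755197, on the plus strand, and shares its locus with no other gene of the table. About 15000 reads and 14000 reads, respectively, stand behind these values, so counting error was small, and the log2 ratio of 0.06 had an interval of 0.03 to 0.09. Only 4.39% of expressed genes were at or above *MYC* in the untransfected library and 4.13% in the anti-APC library. The 3 genes whose levels over the 2 libraries lay nearest to *MYC* were *UBE2D3*, *SYNCRIP* and *GNB1*, at distances of 0.0152, 0.0217 and 0.0233 in log2 FPKM, a likeness that rests on 2 values per gene. *MYCN*, the paralog best known from neuroblastoma (chromosome 2, 16080672 to 16087129), was listed at 0 in both libraries and marked as not tested by the authors' software. Its antisense neighbour *MYCNOS*, at the same locus, was also listed at 0 in both. *MYCL*, the third paralog, was at 2.33 FPKM in untransfected and 2.42 FPKM in anti-APC cells. *MYC* made up 98.7% of the summed FPKM of the 3 paralogs in each library.

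*MAX* is the partner that MYC requires and for which the MXD proteins and MNT compete. It had 33.3 FPKM in untransfected cells and 36.7 FPKM with anti-APC siRNA. Its log2 ratio of 0.14 was the highest among the members on the deposited scale, with an interval of 0.04 to 0.24. *MYC* and *MAX* were the 2 members whose intervals did not include 0, which speaks to the reads counted in these libraries and not to the conditions. *MYC* transcript exceeded *MAX* transcript 5.34-fold in untransfected and 5.04-fold in anti-APC cells. *MAX* lies on chromosome 14 from 65472892 to 65569413, on the minus strand. Cuffdiff placed it at 1 locus with 6 other rows, including *FNTB*, which encodes a farnesyltransferase subunit and went from 4.59 to 2.15 FPKM. How reads were divided among these rows was not tested.

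The antagonists were all expressed well below *MYC*. *MXI1* (chromosome 10, 111967363 to 112047123) was the most abundant of them, at 16.2 FPKM in untransfected and 16.8 FPKM in anti-APC cells, a log2 ratio of 0.05 (interval -0.06 to 0.17). *MXD3*, an MXD protein usually linked to dividing cells, stood at 6.03 and 5.32 FPKM. On the deposited scale it was the member with the largest difference, at 88.1% of the untransfected level, but only about 150 and 120 reads support it, and its interval of -0.54 to 0.17 on the log2 scale includes 0. *MXD3* (chromosome 5, 176728462 to 176739758) shares a locus with the far more abundant *PRELID1*, a mitochondrial lipid transfer gene at 154 and 161 FPKM. *MNT*, the broadly expressed antagonist (chromosome 17, 2287367 to 2304398), was at 4.83 and 4.52 FPKM, a log2 ratio of -0.10 (interval -0.28 to 0.09).

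*MXD4* (chromosome 4, 2249159 to 2263836) was at 2.39 FPKM in the untransfected and 2.20 FPKM in the anti-APC library, with an interval of -0.41 to 0.18 around its log2 ratio of -0.12. The microRNA row *MIR4800* at the same locus was listed at 232 and 158 FPKM, a log2 ratio of -0.55. Its FPKM is scaled to a short feature and is not set beside the level of *MXD4*. The division of reads between *MIR4800* and *MXD4* was not tested. *MXD1*, the founding MXD gene and one known to be induced in differentiating cells (chromosome 2, 70124820 to 70170077), was the lowest expressed member at 1.31 and 1.39 FPKM. Its log2 ratio was 0.08, with an interval of -0.24 to 0.40 from about 170 and 160 reads. *MYC* exceeded *MXD1* 135-fold in untransfected and 134-fold in anti-APC cells. Summed over *MXD1*, *MXD3*, *MXD4*, *MXI1* and *MNT*, antagonist transcript came to 30.7 FPKM in untransfected and 30.2 FPKM in anti-APC cells. That sum was 17.3% and 16.3% of the *MYC* level, and *MXI1* supplied 52.6% and 55.5% of it. *MGA*, a further MAX partner described below (13.6 and 13.4 FPKM), is not in that sum. These are transcript levels, and protein was not measured. Of the antagonists, *MXI1* and *MXD1* were slightly above and *MXD3*, *MXD4* and *MNT* slightly below their untransfected levels. These directions are not firm, since the intervals of all 5 include 0, and *MXD4* and *MNT* turned to 0.06 and 0.02 when each gene was compared with genes of like level. On that scale *MXD1* went from 0.08 to 0.28 and *MXD3* from -0.18 to -0.08, so *MXD1* was then the member with the largest difference.

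**Figure D2:**
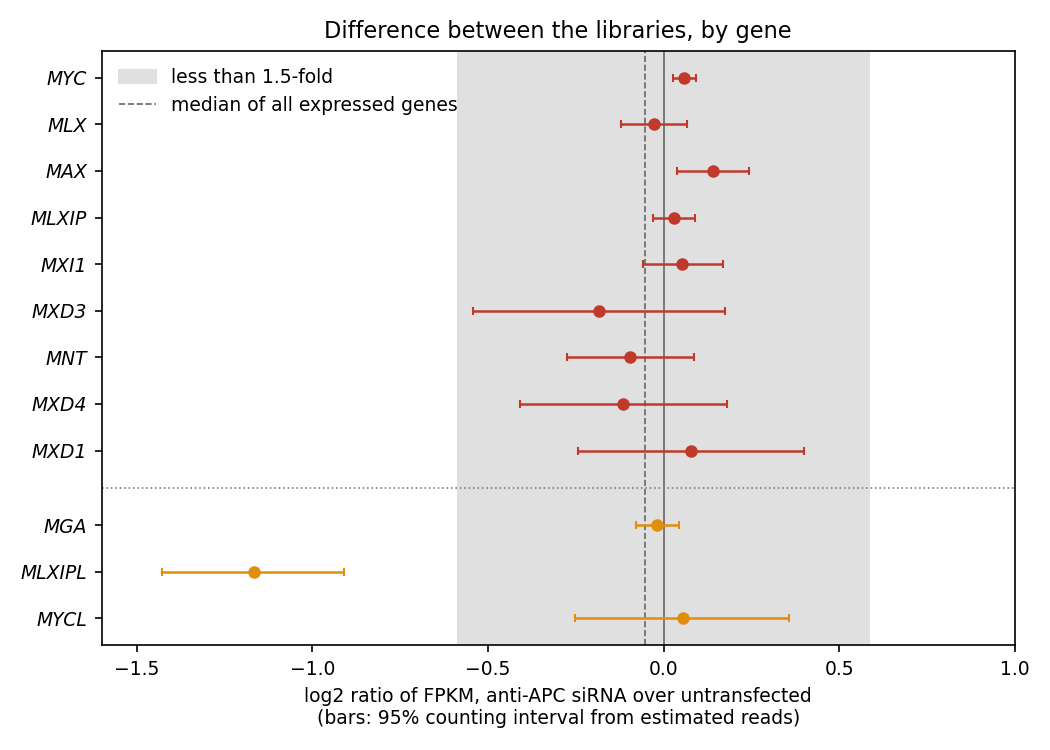
Log2 ratio of FPKM, anti-APC siRNA over untransfected, for the 9 expressed members and 3 further network factors (below the dotted line), each with its 95% counting interval; the shaded band is less than 1.5-fold. All member intervals lie inside the band, whereas that of *MLXIPL* (-1.43 to -0.91) lies outside it.

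In the MLX arm of the network, both members differed by a factor of 1.02 between the libraries, while a paralog outside the member list was past the threshold. *MLX* (chromosome 17, 40719090 to 40725257, plus strand) had 36.4 FPKM in untransfected and 35.7 FPKM in anti-APC cells, a log2 ratio of -0.03 (interval -0.12 to 0.07) that became 0.03 when the median of all expressed genes was subtracted. It shares a locus with *PSMC3IP*, a recombination factor gene at 26.4 and 32.0 FPKM. *MLXIP*, which encodes the MondoA glucose sensor (chromosome 12, 122516628 to 122631894), was at 24.1 and 24.6 FPKM, a log2 ratio of 0.03 (interval -0.03 to 0.09). *MLXIPL* is its paralog, encodes ChREBP, a carbohydrate-responsive activator of lipid synthesis genes, and is not one of the 10 members. *MLXIPL* (chromosome 7, 73007524 to 73038873, minus strand) stood at 5.73 FPKM in the untransfected library and 2.55 FPKM in the anti-APC library. It was therefore at 44.5% of the untransfected level, a log2 ratio of -1.17 (interval -1.43 to -0.91, from about 430 and 170 reads). No other gene of the table shares its locus. *MLXIP* transcript exceeded *MLXIPL* transcript 4.20-fold without and 9.62-fold with anti-APC siRNA, while their sum went from 29.8 to 27.1 FPKM. *MGA*, a large MAX partner that acts in repressive complexes, was at 13.6 and 13.4 FPKM, a log2 ratio of -0.02. Of *MYCL*, *MGA* and *MLXIPL*, 0 were higher and 1 was lower by 1.5-fold, beside 2.56% and 6.61% of all expressed genes. A single gene does not describe these 3 factors.

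In untransfected cells the members ranked, from high to low, as *MYC*, *MLX*, *MAX*, *MLXIP*, *MXI1*, *MXD3*, *MNT*, *MXD4* and *MXD1*. The order was the same in the anti-APC library except that *MAX* moved ahead of *MLX*. These neighbours differed 1.09-fold in one library and by a ratio of 0.973 in the other, so they have no settled order. The next closest pair, *MXD3* and *MNT*, kept its order, at 6.03 and 4.83 FPKM in the untransfected and 5.32 and 4.52 FPKM in the anti-APC library, though without replicates its spread is unknown.

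**Figure D3:**
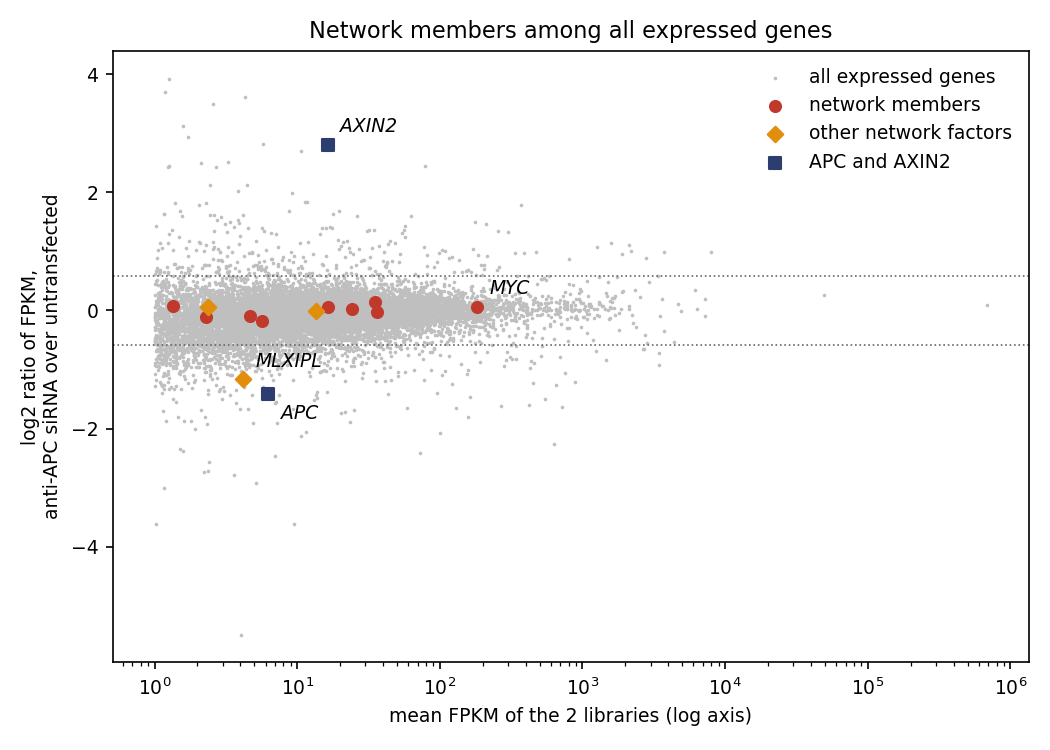
Mean FPKM of both libraries (log axis) against the log2 ratio of anti-APC siRNA over untransfected for 12063 expressed genes (grey), with dotted lines at 1.5-fold. The 9 members (circles) lie between -0.18 and 0.14, whereas *APC* (-1.41), *MLXIPL* (-1.17) and *AXIN2* (2.81) lie outside the lines.

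The genes that work with these factors were listed by role. For lists of this size the 9.17% of all expressed genes past 1.5-fold comes to less than 1 gene, so a count of 0 does not set a list apart. In the SIN3 and histone deacetylase corepressor, through which MXD proteins and MNT repress, 0 of 10 genes passed 1.5-fold in either direction. *HDAC1*, its highest transcript, was at 142 and 128 FPKM. *SUDS3*, *NCOR1* and *MYCBP* were picked once their values were known. The subunit gene *SUDS3* had the lowest ratio of that list, at 17.2 and 12.6 FPKM, a log2 ratio of -0.45 (interval -0.56 to -0.35). *NCOR1*, a nuclear receptor corepressor, had the highest, with a log2 ratio of 0.27. Of 10 cofactors of MYC, 9 were expressed and 0 passed. *RUVBL2*, the ATPase with the highest level among them, was at 182 and 171 FPKM. *MYCBP* had the lowest log2 ratio, -0.27, and the acetyltransferase gene *KAT5* was marked as failed and listed at 0 in both libraries. Of 7 genes that control MYC protein stability, 0 passed, and *HUWE1*, a ubiquitin ligase and the highest of them, was at 75.1 and 59.2 FPKM. The median log2 ratios of these lists were 0.03, -0.09 and 0.05.

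Of 16 genes that MYC is known to induce, 14 were expressed, 0 were higher and 1 was lower by 1.5-fold or more, and their median log2 ratio was 0.08. The background is 2.56% higher and 6.61% lower, each of which alone is less than 1 gene out of 14, and 9.17% in either direction. A single gene past the threshold does not set the list apart, and the lists were not tested. *NCL*, which encodes the nucleolar protein nucleolin, was the highest, at 1095 FPKM in untransfected and 1174 FPKM in anti-APC cells. *ODC1*, the rate-limiting enzyme of polyamine synthesis, was at 441 and 641 FPKM, a 1.45-fold difference just under the threshold, and it was named after its value was seen. With the median of all expressed genes subtracted, its log2 ratio of 0.54 became 0.59, past the threshold. On that scale 2.93% of all expressed genes were higher by 1.5-fold. *TERT*, the catalytic subunit of telomerase (chromosome 5, 1253262 to 1295183), was the gene past the threshold, at 1.67 FPKM in untransfected and 0.878 FPKM in anti-APC cells. This was a log2 ratio of -0.93 (interval -1.35 to -0.53), which became -0.51, short of 1.5-fold, on a scale of FPKM plus 1. *SHMT2* was marked as failed and listed at 0 in both libraries, and *CCND2* was listed at no more than 0.00627 FPKM.

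Of 5 genes that MYC is known to repress, 1 was higher and 0 were lower by 1.5-fold, beside 2.56% and 6.61% of all expressed genes, and a single gene does not describe the list. *CDKN2B* (chromosome 9, 22002902 to 22009304) encodes an inhibitor of cyclin-dependent kinases, and MYC represses it through ZBTB17. This gene was at 2.36 FPKM in untransfected and 3.98 FPKM in anti-APC cells, a log2 ratio of 0.75 (interval 0.49 to 1.01). After a pseudocount of 1 FPKM was added, *CDKN2B* fell to 0.56 and no longer passed the threshold. Its antisense gene *CDKN2B-AS1*, at the same locus, was at 0.233 and 0.321 FPKM, and whether the authors' assignment of reads used strand is not given in the sources used here. *CDKN1A*, the highest of the list, was at 67.9 and 65.1 FPKM. Of *TXNIP* and *ARRDC4*, known targets of MLX with MLXIP, the first was listed at 0 in both libraries and marked as not tested by the authors' software. *ARRDC4* was at 3.20 and 3.61 FPKM, a log2 ratio of 0.17.

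**Figure D4:**
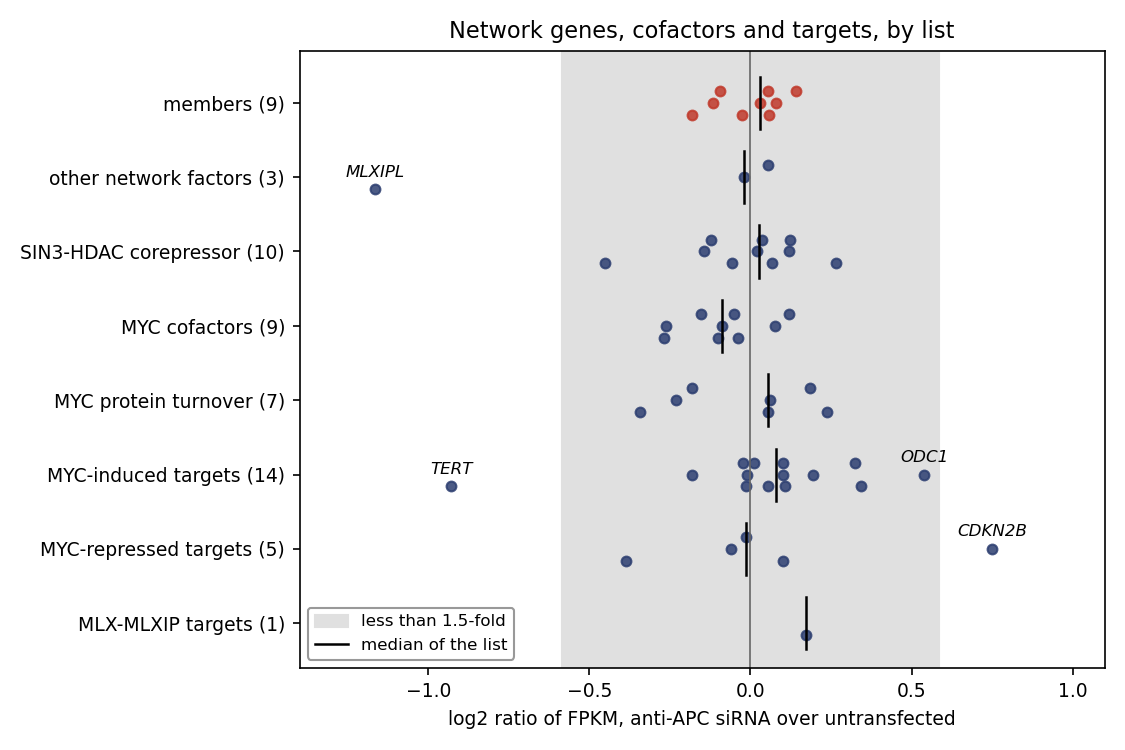
Log2 ratio of FPKM, anti-APC siRNA over untransfected, for each expressed gene of 8 lists (number expressed in brackets); black lines are list medians and the shaded band is less than 1.5-fold. The genes outside the band are *MLXIPL* (-1.17), *TERT* (-0.93) and *CDKN2B* (0.75), and *ODC1* (0.54) lies just inside it.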

How the data were processed

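HCT-116 RNA was measured in 3 single-read TruSeq libraries, and the table used here holds 2 of them. The values the authors deposited are FPKM, made by assigning reads to transcripts with Cufflinks and Cuffdiff. The submitters' processing notes name hg19. Aligner, annotation and versions are not given in the sources used here. The same table holds the authors' comparison (log ratio, test statistic, p and q), which was not used. The column for cells without siRNA was taken as the untransfected library because the other libraries received siRNA. Cuffdiff marked 269 rows as failed, all listed at 0 in both libraries.

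Ratios of FPKM, on the log2 scale and with no pseudocount, were computed per gene, and genes were called at 1.5-fold with a mean of at least 1 FPKM and values above 0 in both libraries. This left out 134 genes at that mean that are listed at 0 in 1 library. Among 1030 genes under 0.05 FPKM, 257 shared a log2 ratio of 0.13 within 0.01, that of 1 read in each library. The 33 of them with 1 GENCODE 44 transcript gave median depths of 22900000 reads (quartiles 13200000 and 25200000) for untransfected and 20900000 (12100000 and 23000000) for anti-APC. Reads per gene follow from these and the length of the MANE Select transcript, or of the longest coding one for *MLXIP*, *MGA* and *BOP1*, and are approximate. Intervals are Clopper-Pearson. Gene coordinates are from GENCODE 44 on GRCh37, 1-based. The fold calls, the ratio of 1 read in each library and the intervals were tested on simulated data. The simulated intervals used known read counts and depths, so the estimation of reads from transcript length was not tested.

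Members and lists were chosen with earlier results of these data known. All members, list genes past 1.5-fold, the highest gene of each list, *APC*, *AXIN2* and the 3 genes nearest to *MYC* are named. Alternatives were other folds, level filters, pseudocounts, centrings and loci with 1 gene. Python 3.11.15, numpy 2.4.6, pandas 2.3.3, scipy 1.17.1 and matplotlib 3.10.9 were used.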

Additional observations from a re-analysis of the deposited data

How the results depend on the processing

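The 9 expressed members stayed under 1.5-fold with a pseudocount of 1 FPKM, with other minimum levels, after median centring and at the other 2 fold thresholds tried. Pseudocounts of 0.1 and 1 FPKM and centring on genes of like level kept all 9 log2 ratios within their counting intervals. Median centring did so for 8, the exception being *MYC*, whose log2 ratio became 0.11. The sign differed for *MLX* after median centring (0.03) and for *MXD4* (0.06) and *MNT* (0.02) after centring on genes of like level, which also moved *MXD1* to 0.28, the largest value of a member on that scale. The background count of 1106 genes past 1.5-fold (9.17% of 12063) became 3084 at the lower fold threshold and 280 at 2-fold. With a pseudocount of 1 FPKM it was 675. Other filters also changed how many genes were compared. The count was 2190 (15%) and 533 (5.79%) with a mean of at least 0.1 and 5 FPKM. It was 3162 (19.4%) with no filter on level and 735 (8.02%) over genes alone at their locus. These shifts follow by construction of the settings. After median centring the count was 1005 (8.33%). No paired analysis was possible because each condition has 1 library. The missing replicates and the scrambled siRNA library, not analysed here, limit every value, and members under 10 FPKM rest on at most about 550 reads per library.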
